A study of Mus musculus with 9 samples.

Results

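The genes described here are Gapdh and other genes in common use as references for normalizing expression measurements. A list of 7 symbols was searched in the expression table, and 6 of them (Gapdh, Actb, Hprt, Ppia, Ywhaz and Gusb) were found among its 10011 genes; Tbp was not analysed here. The list was chosen by the low FPKM of Gapdh at 5 weeks, so the levels of Gapdh are given below as a description with no test, and tests were read for the other 5 genes. The values are FPKM, fragment numbers scaled for the length of a transcript and for library size, a per length scale that allows levels of different genes to be set side by side.

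RNA sequencing was performed on smooth muscle of the whole colon, stripped of mucosa by dissection, from untreated C57BL/6 mice. Whole colon is taken from a supplementary legend of the study. Its methods also describe proximal and distal preparations, and no segment is given for the single libraries. The 3 groups were aged 1 week (PW1), 3 weeks (PW3) and 5 weeks (PW5) after birth, with 3 mice in each and 1 library per mouse. The question put to these genes was whether their levels were even within each age and between ages, since the study normalized its qRT-PCR values to Gapdh. FPKM summed to between 200604 and 223474 per library, and the read depth behind them is unknown.

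A reference gene is used as a denominator: the signal of a target is divided by it, so that differences in input RNA cancel. The genes in use come from unrelated housekeeping functions. Gapdh encodes a glycolytic enzyme, Actb a cytoskeletal actin, Hprt a purine salvage enzyme, Ppia the cytosolic peptidyl-prolyl isomerase cyclophilin A, Ywhaz a 14-3-3 adaptor protein, Gusb the lysosomal hydrolase beta-glucuronidase, and Tbp the TATA-binding protein of the transcription machinery.

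The labelled tissue was checked against 13 smooth muscle genes. All 13 were in the table and none was at 0 in any library, and their summed level ran from 17407 FPKM in PW1 replicate 3 to 31573 FPKM in PW3 replicate 3. The most abundant, the enteric smooth muscle actin Actg2, lay between 4396 and 9743 FPKM, whereas Mylk, the myosin light chain kinase, reached only 0.498 to 13.5 FPKM. As a sum, smooth muscle genes were thus abundant in all 9 libraries, though not every gene of the list was.

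Several libraries stood apart from the others of their age. In PW1 replicate 2, 12 measured skeletal muscle genes summed to 1157 FPKM, against 118 to 221 FPKM in the other 8 libraries, and 5 red blood cell genes summed to 1207 FPKM, against 49.99 to 507 FPKM. Hbb-bs, the most abundant blood gene, read 476 FPKM there, against 17.7 to 191 FPKM elsewhere. The most abundant skeletal muscle gene, the creatine kinase Ckm, did not set that library apart, at 140 FPKM against 141 FPKM in PW3 replicate 3, but the fast myosin light chain Mylpf did, at 230 FPKM against 0.464 to 29.9 FPKM. The sum over 20 genes of the mucosal epithelium was 2768 FPKM in PW3 replicate 2, against 24.3 and 129 FPKM in PW3 replicates 1 and 3. The same sum was 1453 and 1084 FPKM in PW5 replicates 1 and 3 but 102 FPKM in PW5 replicate 2, and 39.9, 75.2 and 184 FPKM in the PW1 libraries. Its most abundant gene, the carbonic anhydrase Car1, had a value of 0 in PW1 replicate 1 and reached 1286 FPKM in PW3 replicate 2. In PW3 replicate 3, 669 genes were listed at 0, against 295 to 464 in the other libraries, and the median was 5.52 FPKM, against 6.46 to 7.38 FPKM. Enteric neuron genes summed to 538 to 770 FPKM, glial genes to 69.6 to 112 FPKM, genes of interstitial cells of Cajal to 39.8 to 53.7 FPKM, and adipocyte genes to 36.2 to 155 FPKM. Genes of lymphocytes and macrophages summed to 67.1, 84.3 and 87.8 FPKM at PW1, 160, 137 and 164 FPKM at PW3, and 202.3, 202 and 278 FPKM at PW5, without overlap between ages. Mylk and Mylpf were named after their values were seen. In such bulk samples, fewer cells of a type and less RNA per cell cannot be told apart.

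Gapdh (ENSMUSG00000057666, chr6:125161715-125166467, minus strand, GRCm38) encodes glyceraldehyde-3-phosphate dehydrogenase. Its level was 14.7, 22.7 and 14.1 FPKM in PW1 replicates 1 to 3, 14.1, 13.2 and 15.1 FPKM in the PW3 libraries, and 0.272, 7.96 and 6.09 FPKM in the PW5 libraries. All 3 PW5 libraries lay below the 6 younger ones, PW1 and PW3 overlapped, and PW5 replicate 1 lay far below every other library. Group means were 17.15 ± 4.81 FPKM at PW1, 14.15 ± 0.999 FPKM at PW3 and 4.77 ± 4.01 FPKM at PW5 (SD, n = 3 each), so the coefficient of variation (CV, SD over mean) was 28.0%, 7.06% and 84.0%. The PW5 spread came mostly from 1 library: the highest PW5 value was 29.3 times the lowest. On the log2(FPKM + 1) scale, which understates the change of low genes, Gapdh differed from PW1 by -0.23 at PW3 and by -2.04 at PW5, and the PW5 difference was -1.16 without PW5 replicate 1. That library was also 1 of the 2 PW5 libraries with high mucosal epithelium genes, but PW5 replicate 3, with a like sum of those genes, read 6.09 FPKM, and the part of mucosal RNA in the Gapdh values was not tested.

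**Figure D1:**
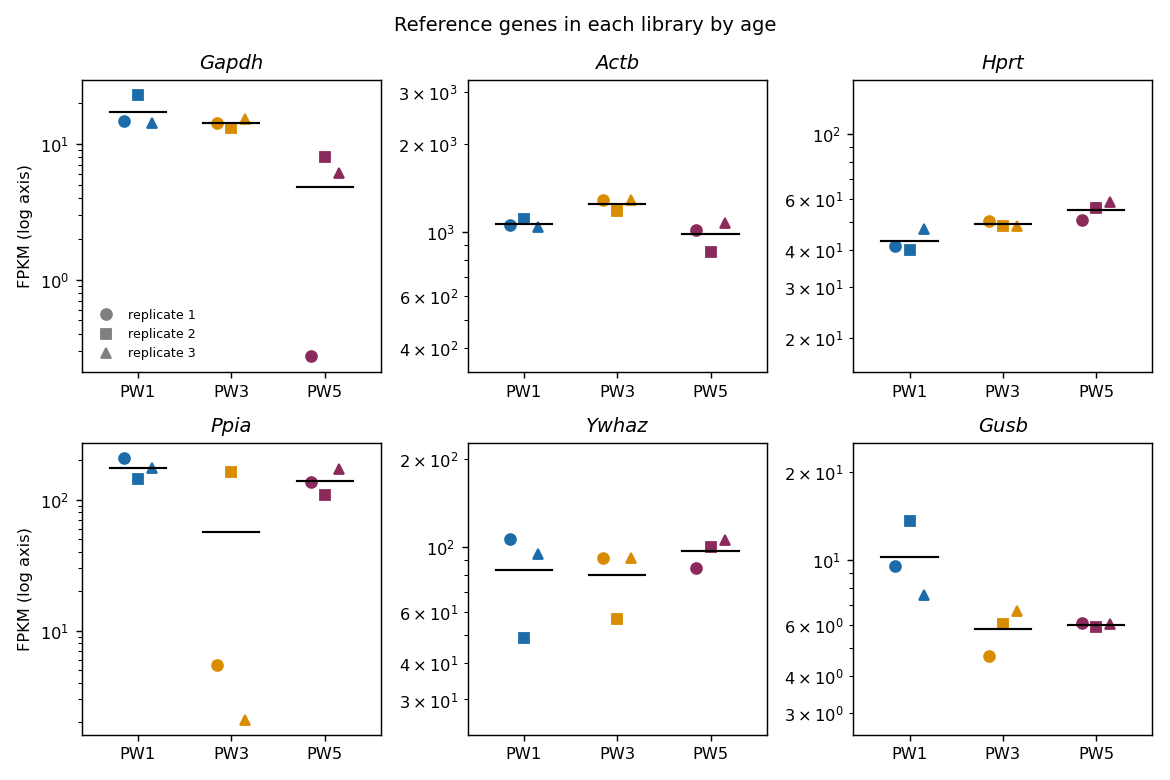
FPKM (log axis) of the 6 measured reference genes in each of the 9 libraries by age; points are libraries, marker shapes are replicate numbers and black lines are group means. Gapdh was lowest in PW5 replicate 1 (0.272 FPKM) and Ppia in PW3 replicates 1 and 3 (5.496 and 2.08 FPKM), while every axis spans at least a 10-fold range so that Actb and Hprt appear nearly flat.

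Gapdh was also low beside the enzymes that act before and after it in glycolysis. Of 24 listed genes of the pathway other than Gapdh, 22 had a row, and 10 of these (Hk1, Gpi1, Aldoa, Tpi1, Pgk1, Pgam1, Eno1, Pkm, Ldha and Ldhb) exceeded Gapdh in every library, a comparison chosen after the values were seen. The aldolase Aldoa ranged from 145.7 to 328 FPKM, the lactate dehydrogenase Ldha from 103 to 165 FPKM and the phosphoglycerate kinase Pgk1 from 87.3 to 127 FPKM. In PW5 replicate 1, Aldoa was at 279 FPKM, Ldha at 128 FPKM and Pgk1 at 116 FPKM. The glucose transporter Slc2a3 of the same list, named after its values were seen, was low there like Gapdh, at 0.331 FPKM against 9.19 and 6.04 FPKM in PW5 replicates 2 and 3, and was also low in PW3 replicate 3 (0.355 FPKM). Within the whole table, 2836 genes had a higher FPKM than Gapdh in PW1 replicate 1, 4373 in PW5 replicate 2 and 9315 in PW5 replicate 1.

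**Figure D2:**
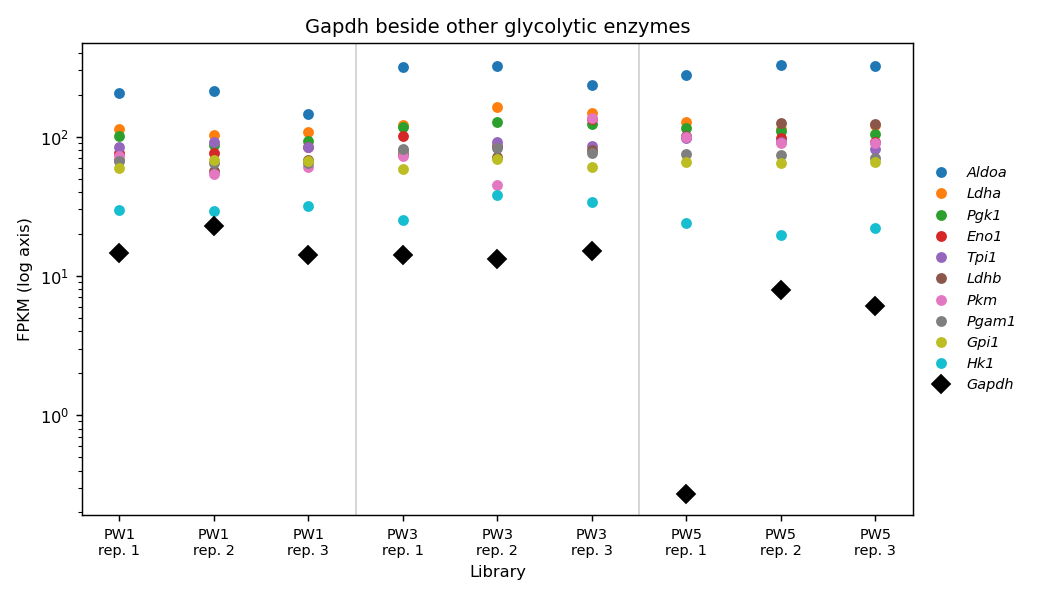
FPKM (log axis) of Gapdh (black diamonds) and of the 10 glycolytic genes that exceeded it in every library, in each of the 9 libraries. The 10 genes were picked for lying above Gapdh, so the plot shows their levels and is no test; Slc2a3, at 0.331 FPKM in PW5 replicate 1, is not drawn.

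Tests between ages used limma on log2(FPKM + 1) over all genes averaging 0.5 FPKM or more, with Benjamini-Hochberg adjusted p under 0.05 as the threshold. At PW3, 0 of the 5 tested reference genes passed (6.89% of 9896 genes did), and 2 of the 5 (Ppia and Gusb) had an unadjusted p under 0.05, as did 2486 of all genes. At PW5, 1 of the 5 passed (25.9% of 9875 genes did), namely Hprt, which was higher; 9.04% of all genes passed as higher and 16.9% as lower. At PW3, the PW1 and PW3 libraries did not overlap for 3 of the 5 (36.4% of all genes), and at PW5 for 2 of the 5 (44.2% of all genes). The former were Actb and Hprt (higher) and Gusb (lower), and the latter Hprt and Gusb. Over all genes tested, the median difference was -0.17 at PW3 and -0.11 at PW5 in log2 units, and both comparisons share the PW1 libraries.

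Among the glycolytic genes other than Gapdh, 1 of 22 tested rose at PW3 (2.48% of all genes did) and 0 fell (4.42% of all genes did), with a median log2 fold change of 0.29. These shares, and 9.04% higher and 16.9% lower at PW5, are the background for every gene list. The gene was the neuronal enolase Eno2 (log2 fold change 0.56, limma adjusted p 0.0336), and the count was 0 when any single library but PW3 replicate 3 was left out. At PW5, 4 of 21 rose (Aldoa, Eno1, Pkm and Ldhb) and 2 fell (Hk1 and Eno3), with a median of 0.16. The PW5 counts were not steady: 2 rose without PW5 replicate 1 and 9 with median-of-ratios scaling, and 1 fell when any single library but PW1 replicate 2 was left out. Aldoa rose by a log2 fold change of 0.73 (adjusted p 0.0223), and the muscle enolase Eno3 changed by -1.49 (adjusted p 0.048). Eno3 read 48.4 FPKM in PW1 replicate 2, the library with high skeletal muscle genes, against 22.3 and 15.6 FPKM in PW1 replicates 1 and 3. Eno2 and all called genes but Aldoa and Eno3 were named after their values were seen.

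Part of the Gapdh transcript sequence is not unique to it. Of 1893 distinct 150-base windows (the read length) in its 6 coding transcripts, 941 (49.7%) occurred without a mismatch in annotated transcripts of 49 other genes, 46 of which were pseudogenes and 0 of which had a row in the table. The pseudogene Gm7336 (chr7:51746647-51747878) held all 941. The same search gave 413 of 1850 windows (22.3%) in 7 other genes for Ppia, 440 of 3985 windows (11.0%) in 1 pseudogene for Ywhaz, and 0 windows for Actb, Hprt and Gusb. Values of Gapdh, Ppia and Ywhaz are therefore uncertain where reads could be split between copies. How the counting treated such reads is not given in the sources used here, nor is how transcript values were merged to a single FPKM per gene. The part of either in the values was not tested.

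The primer pair that the study used for Gapdh in qRT-PCR lies in coding exons 4 and 5 of the 7 exons of Gapdh-201, with the forward primer at chr6:125162971-125162992 and the reverse primer at chr6:125162681-125162702. It is shown because it defines the denominator of those measurements, and it matched 4 of the 6 coding transcripts. The product is 178 bases and is printed on the transcript strand with both primer sites in capitals.
Gapdh product: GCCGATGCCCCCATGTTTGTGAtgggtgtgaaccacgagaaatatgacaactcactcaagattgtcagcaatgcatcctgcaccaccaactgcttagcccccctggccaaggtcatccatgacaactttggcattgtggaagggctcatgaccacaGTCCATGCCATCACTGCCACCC
Both primer sites were also found without a mismatch in transcripts of 45 other annotated genes, 41 of them pseudogenes, and the product between them was identical in 15.

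Actb (ENSMUSG00000029580, chr5:142903115-142906754, minus strand), which encodes cytoplasmic beta-actin, had the highest level of the 6 genes in 9 of 9 libraries. It read 1056.5, 1106.5 and 1036 FPKM at PW1, 1285, 1179 and 1280 FPKM at PW3, and 1014, 852 and 1072 FPKM at PW5. The 3 PW3 libraries lay above the 3 PW1 libraries by a narrow margin, and PW5 overlapped PW1. Its CV was 3.38% at PW1, 4.79% at PW3 and 11.7% at PW5. Its log2 fold change was 0.23 ± 0.11 at PW3 (SE, limma adjusted p 0.279) and -0.13 ± 0.10 at PW5 (adjusted p 0.418). Neither passed, and the direction flipped to -0.11 at PW3 with quantile normalization. At PW5 it was 0.01 with median-of-ratios scaling, which moved the median of all genes by 0.12, so this flip is not particular to Actb. With quantile normalization Actb at PW5 was -0.43 and passed (adjusted p 0.014).

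The other 5 actin isoforms are the second cytoplasmic actin Actg1, the smooth muscle actins Acta2 and Actg2, and the striated muscle actins Acta1 and Actc1. At PW3, 0 rose and 1 fell (Actc1), with a median log2 fold change of -0.10, and at PW5, 0 rose and 2 fell (Actc1 and Actg1), with a median of -0.25. Actc1, the cardiac isoform, read 77.0, 72.9 and 45.9 FPKM at PW1, 20.6, 18.6 and 23.9 FPKM at PW3 and 6.48, 6.55 and 6.81 FPKM at PW5. The 3 ages did not overlap for Actc1, and its log2 fold change at PW5 was -3.09 (adjusted p 0.000506). The PW3 count was 0 without PW1 replicate 1, PW1 replicate 2 or PW3 replicate 1. Acta1, the skeletal isoform, was at 362 FPKM in PW1 replicate 2 and at 14.4 to 61.4 FPKM elsewhere. Actg1 was the most even isoform, between 333 and 415 FPKM, and fell at PW5 (log2 fold change -0.25, adjusted p 0.0144). The PW5 count of isoforms that fell was 1 with median-of-ratios scaling, with quantile normalization and in limma without the trend, and 3 without PW1 replicate 2.

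Of 22 genes of actin filament turnover, 2 rose and 1 fell at PW3 (median -0.05), and 6 rose and 6 fell at PW5 (median -0.08), where 9.04% of all genes rose and 16.9% fell. With median-of-ratios scaling, 8 rose and 4 fell at PW5. At PW3, 0 rose without PW1 replicate 1 or PW1 replicate 2, and 5 rose and 3 fell without PW3 replicate 3. Smooth muscle markers changed over the same ages, with 5 of 13 higher and 0 lower at PW3 and 7 of 13 higher and 0 lower at PW5, and the part of the smooth muscle share in the counts of this list was not tested. The actin-depolymerizing factor Dstn was at 847 to 1055 FPKM at PW1 and 1782 to 1927 FPKM at PW5 (log2 fold change 1.00, adjusted p 0.00184). The monomer-binding thymosin Tmsb10 went the other way, from 399 to 412 FPKM at PW1 to 86.6 to 107 FPKM at PW5 (log2 fold change -2.06, adjusted p 0.000216). The Arp2/3 subunits Arpc3 and Arpc5 were called in opposite directions at PW3, with log2 fold changes of -1.55 and 1.301 (adjusted p 0.0086 and 0.00942).

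Hprt (ENSMUSG00000025630, chrX:52988137-53021659, plus strand), which encodes hypoxanthine phosphoribosyltransferase, was the most even gene of the 6 over the 9 libraries. Actb was close to it, and their order was not fixed: over the settings tried, the lowest SD of log2(FPKM + 1) was 0.134 for Actb and 0.148 for Hprt. It read 41.5, 40.0 and 47.3 FPKM at PW1, 50.3, 48.5 and 48.4 FPKM at PW3, and 50.8, 55.7 and 58.7 FPKM at PW5. All PW3 and all PW5 libraries lay above all PW1 libraries, with PW3 and PW5 also apart by a small margin. Its CV was 8.915% at PW1, 2.145% at PW3 and 7.27% at PW5. The log2 fold change was 0.19 ± 0.09 at PW3 (SE, limma adjusted p 0.261) and 0.35 ± 0.09 at PW5 (adjusted p 0.0337), the latter higher in 3 of 3 libraries. The mean FPKM at PW5 was 1.28 times that at PW1. The PW5 call was lost without PW1 replicate 1 (adjusted p 0.0982), PW1 replicate 2 (0.0957), PW5 replicate 2 (0.0899) or PW5 replicate 3 (0.0948) and in limma without the trend (0.086), while the direction was positive in each of the 15 other settings at both ages.

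Among the other genes of purine synthesis and salvage, 15 of 20 had a row. At PW3, 0 rose and 1 fell (Impdh2), with a median log2 fold change of -0.015, and at PW5, 2 rose (Adk and Xdh) and 2 fell (Gart and Impdh2), with a median of -0.04. Aprt, the adenine counterpart of Hprt in salvage, read 28.6, 40.2 and 34.8 FPKM at PW1 and 18.1, 26.9 and 13.6 FPKM at PW5, without overlap, and did not pass (adjusted p 0.0677). Impdh2, which commits inosine monophosphate to guanine nucleotides, fell at both ages, with log2 fold changes of -0.52 (adjusted p 0.0413) and -0.66 (adjusted p 0.00247). The PW3 count was 0 without PW1 replicate 1, PW1 replicate 2, PW1 replicate 3 or PW3 replicate 1. Xdh, which degrades hypoxanthine, was at 0.227 to 0.496 FPKM at PW1 and 4.67 to 5.70 FPKM at PW5 (log2 fold change 2.17, adjusted p 0.00204).

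In place of Tbp, 24 of 31 listed subunits of TFIID, general factors and RNA polymerase II had a row. Of 23 tested at PW3, 0 rose and 0 fell by limma, with a median log2 fold change of -0.24. Of 24 tested at PW5, 0 rose and 2 fell (Gtf2f1 and Polr2c), with a median of -0.02. The PW5 count that fell ran from 1 to 3 when each library was left out, and up to 2 rose under the other settings. Drap1, a repressor that binds Tbp-bound promoters, was the most abundant, at 42.6 to 74.0 FPKM. Polr2a, the large polymerase subunit and itself used as a reference gene, varied widely, from 0.0731 FPKM in PW3 replicate 3 to 12.2 FPKM in PW1 replicate 2, and was named after its values were seen.

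Ppia (ENSMUSG00000071866, chr11:6415443-6419817, plus strand) had the widest range of the 6 genes. Its level was 209, 145 and 173 FPKM at PW1, 5.496, 163 and 2.08 FPKM at PW3, and 137, 108 and 171 FPKM at PW5. PW3 replicates 1 and 3 lay far below the other 7 libraries, and PW3 replicate 2 lay within the range of PW1. The highest PW3 library was 78.5 times the lowest; a ratio above 10 between the highest and lowest library of an age was seen in 19.1% of 9959 genes at PW3, 14.7% at PW1 and 15.8% at PW5. Among the 3786 genes averaging 10 FPKM or more, such ratios were less common, at 3.35% of genes at PW3, 2.72% at PW1 and 2.64% at PW5. Of the 6 reference genes, only Ppia at PW3 and Gapdh at PW5 had such a ratio.

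The log2 fold change of Ppia at PW3 was -3.56 ± 1.43 (SE, limma adjusted p 0.193), so this large difference did not pass. PW3 replicate 2 decided the call: without it the log2 fold change was -5.29 (limma adjusted p 0.0152). Over all settings the adjusted p ran from 0.0152 to 0.358. That library had high epithelium genes, but its Ppia level lay within the range of PW1. The part of mucosal RNA in the Ppia values was not tested. At PW5 the log2 fold change was -0.35 ± 0.21 (adjusted p 0.282). Gclm, which shares 106 windows of Ppia sequence and has a row, was at 1.38, 7.86 and 7.26 FPKM in the PW3 libraries and at 4.86, 4.71 and 5.89 FPKM at PW1. It was low in PW3 replicate 1 and not in PW3 replicate 3, and it was named after its values were seen.

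Of 14 other cyclophilins measured, 0 rose and 2 fell at PW3 (Ppib and Ppic; median log2 fold change -0.47), and 0 rose and 3 fell at PW5 (Ppib, Ppic and Ppil1; median -0.18), beside 4.42% and 16.9% of all genes lower. The PW3 count was 0 when any single PW1 library was left out. Ppic, a secretory pathway cyclophilin and the most abundant, read 148, 162 and 152 FPKM at PW1, 93.6, 80.0 and 61.6 FPKM at PW3, and 60.0, 59.7 and 61.6 FPKM at PW5. Its log2 fold change was -0.99 at PW3 (adjusted p 0.0238) and -1.34 at PW5 (adjusted p 0.000186). Ppib, the endoplasmic reticulum cyclophilin B, changed by -0.53 and -0.79 (adjusted p 0.0195 and 0.000321), and its 3 ages did not overlap.

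Ywhaz (ENSMUSG00000022285, chr15:36770770-36796929, minus strand), which encodes 14-3-3 zeta, read 106, 48.5 and 94.7 FPKM at PW1, 91.3, 56.6 and 91.8 FPKM at PW3, and 84.7, 99.7 and 105 FPKM at PW5. PW1 replicate 2 and PW3 replicate 2 were low, the other 7 libraries lay close together, and the 3 ages overlapped. These were the libraries with high skeletal muscle genes and with high epithelium genes, but epithelium genes were also high in PW5 replicates 1 and 3, where Ywhaz read 84.7 and 105 FPKM. Whether those tissues had a part in the low values was not tested. The log2 fold change was -0.01 ± 0.34 at PW3 (SE, limma adjusted p 0.983) and 0.28 ± 0.30 at PW5 (adjusted p 0.549). No direction held: at PW3 the value ran from -0.36 without PW1 replicate 2 to 0.21 without PW3 replicate 2. It was 0.16 with median-of-ratios scaling and 0.04 with quantile normalization, which moved the median of all genes by 0.15 and 0.14. At PW5 it was -0.06 without PW1 replicate 2.

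The other 6 genes of the 14-3-3 family had a row each. Ywhae fell at both ages (0 rose and 1 fell at each; medians -0.04 at PW3 and -0.11 at PW5), from 158 to 176 FPKM at PW1 to 122 to 130 FPKM at PW3 and 107 to 123 FPKM at PW5. Its log2 fold changes were -0.41 (adjusted p 0.0367) and -0.57 (adjusted p 0.00423). The PW3 call was lost (count 0) when any single library but PW3 replicate 3 was left out, and under each of the 3 scalings. Ywhah, the most abundant, lay between 158 and 197 FPKM, Ywhaq between 89.6 and 111 FPKM and Ywhab between 94.1 and 107 FPKM. These 3 were more even than Ywhaz. Ywhag, at 32.8 to 95.3 FPKM, was lower in PW3 replicate 2 (41.0 FPKM) than in PW3 replicates 1 and 3 (95.3 and 68.7 FPKM), as Ywhaz was, but was 39.4, 38.3 and 39.2 FPKM at PW1. Sfn, an epithelial family member, ranged from 0.943 to 5.34 FPKM.

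Gusb (ENSMUSG00000025534, chr5:129989011-130003049, minus strand) was the lowest of the 6 genes in 7 of 9 libraries. It read 9.53, 13.6 and 7.61 FPKM at PW1, 4.67, 6.018 and 6.66 FPKM at PW3, and 6.08, 5.88 and 6.01 FPKM at PW5. All PW3 and PW5 libraries lay below all PW1 libraries, and PW1 replicate 2 was the highest of the 9. The CV was 29.6% at PW1, 17.5% at PW3 and 1.66% at PW5. The log2 fold change was -0.70 ± 0.25 at PW3 (SE, limma adjusted p 0.149) and -0.65 ± 0.21 at PW5 (adjusted p 0.073), and neither passed. Without PW1 replicate 3 the PW5 value was -0.82 and passed (adjusted p 0.0417; range over the settings 0.0417 to 0.153). The direction was negative under each scaling.

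Gusb differed in direction from the genes of its compartment that passed. Of 33 listed lysosomal hydrolases and membrane proteins, 27 had a row; 3 rose and 0 fell at PW3 (median log2 fold change 0.14), and 11 rose and 0 fell at PW5 (median 0.33), against a median of -0.11 over all genes. Of all genes, 2.48% rose and 4.42% fell at PW3, and 9.04% rose and 16.9% fell at PW5. The PW3 count was 0 when any single PW1 library was left out. Markers of lymphocytes and macrophages also rose, 4 of 9 at PW3 and 5 of 9 at PW5 with 0 lower (Lyz2 by a log2 fold change of 1.31 at PW5, adjusted p 0.000245), and their part in the lysosomal counts was not tested. Lamp1, a lysosomal membrane protein, read 124, 122 and 124 FPKM at PW1, 173, 184 and 180 FPKM at PW3, and 197, 201.1 and 207 FPKM at PW5 (log2 fold changes 0.53 and 0.70, adjusted p 0.0137 and 0.000345). The protease Ctsd was at 83.3 to 94.1 FPKM at PW1 and 134 to 141 FPKM at PW5 (log2 fold change 0.61, adjusted p 0.00153). Psap, the saposin precursor and the most abundant, did not pass (0.23 at PW5, adjusted p 0.0738).

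Spread over the 9 libraries was measured as the SD of log2(FPKM + 1). It was 0.17 for Hprt, 0.18 for Actb, 0.40 for Ywhaz, 0.41 for Gusb, 1.25 for Gapdh and 2.29 for Ppia, against a median of 0.55 over 9959 genes. The share of genes with a lower SD was 7.64% for Hprt, 9.10% for Actb, 36.2% for Ywhaz, 37.1% for Gusb, 93.3% for Gapdh and 99.7% for Ppia. Hprt and Actb were thus even and Ppia was among the most variable genes of the table. The spread of Gapdh includes the PW5 values by which it was chosen, and without PW5 replicate 1 its SD was 0.54. The medians, which were taken with all 9 libraries, were 0.55 over all genes and 0.32 over the genes averaging 10 FPKM or more. Gapdh is among the latter (12.0 FPKM). Genes of low level vary more, and among the 3786 genes averaging 10 FPKM or more the share below was 17.2% for Hprt, 20.0% for Actb, 62.0% for Ywhaz, 63.1% for Gusb, 94.5% for Gapdh and 99.3% for Ppia. Ywhaz was thus more even than most genes of the table, and less even than most of those at 10 FPKM or more; Gusb, at a mean of 7.33 FPKM, lies below that level. Within ages, the SD was 0.09 for Hprt, 0.11 for Actb, 0.26 for Gusb, 0.43 for Ywhaz, 0.91 for Gapdh and 1.78 for Ppia, and the SD of the 3 age means was 0.18, 0.18, 0.39, 0.17, 1.12 and 1.96 in the same order of genes. Ywhaz therefore varied more within ages than between them, and for Hprt, Actb and Gusb the age means lay further apart than the libraries of an age.

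Other reference genes in common use gave a comparison measured in the same libraries. Of 23 with a row, 6 had a lower SD over the 9 libraries than Hprt, 7 than Actb, 12 than Ywhaz, 12 than Gusb, 21 than Gapdh and 23 than Ppia. Rer1, which returns proteins to the endoplasmic reticulum, was the most even, with an SD of 0.03 and 42.3 to 46.2 FPKM. It also had the lowest SD of the 3786 genes averaging 10 FPKM or more, and was followed there by Cyb5r3, Rab2a, Capn2, Psmc5, Rap1b, Tmed2, Ercc3, Cyfip1 and Ywhab, with SDs of 0.04 to 0.07. These genes were picked as the most even of these 9 libraries, so their spread is a description of them. Several genes in common use changed with age: 1 rose and 4 fell at PW3 (median log2 fold change -0.21), and 2 rose and 8 fell at PW5 (median -0.34). Of all genes, 2.48% rose and 4.42% fell at PW3, and 9.04% rose and 16.9% fell at PW5. When any single PW1 library was left out, 0 of these genes fell at PW3, and 6 fell without PW3 replicate 3. B2m, the light chain of class I histocompatibility molecules, read 234, 222 and 289 FPKM at PW1 and 513, 585 and 550 FPKM at PW5 (log2 fold change 1.15, adjusted p 0.00165). The ribosomal protein gene Rpl32 went from 399 to 410 FPKM to 198 to 199 FPKM (log2 fold change -1.02, adjusted p 0.000216), and the tubulin Tubb5 from 240 to 260 FPKM to 106 to 115 FPKM (log2 fold change -1.17, adjusted p 0.000253). Rplp0, which encodes a stalk protein of the large ribosomal subunit, changed by -0.99 at PW5 (adjusted p 0.000253), while the elongation factor Eef1a1, at 1394.5 to 1884 FPKM, did not pass (-0.20, adjusted p 0.105).

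Ratios between reference genes within a library do not change when a whole library is multiplied by a factor, though quantile normalization can change them. Among the 15 pairs of the 6 genes, the log2 ratio of Actb to Hprt had the lowest SD over the 9 libraries, 0.29, and its mean was 4.64 at PW1, 4.67 at PW3 and 4.15 at PW5. It was lower in each of the 3 PW5 libraries (3.94 to 4.32) than in the 6 younger ones (4.45 to 4.79). The ratio of Gapdh to Ppia had the highest SD, 3.44, and ranged from -8.98 in PW5 replicate 1 to 2.86 in PW3 replicate 3. The mean SD of a gene's log2 ratios with the other 5, the M value of the geNorm procedure, where a lower value means a steadier ratio, was 1.15 for Hprt, 1.15 for Actb, 1.203 for Gusb, 1.23 for Ywhaz, 2.24 for Gapdh and 2.69 for Ppia. These values include the low PW5 values by which Gapdh was chosen, directly for Gapdh and through their ratios with it for the others. They also include the ratios with Ppia, whose SDs ran from 2.34 with Gusb to 3.44 with Gapdh. When the gene of highest M value was removed at each step, Ppia and then Gapdh went first. The place of Gapdh rests on the values by which it was chosen. Of the 4 genes left, Gusb had the highest M value, 0.62. Ywhaz had the highest of the next 3, 0.42, and the last pair, Actb and Hprt, had 0.29. The M value of Gapdh among all 6 was 1.10 without PW5 replicate 1. The M values of the other genes also moved with the setting, so this value does not rank Gapdh as steadier than them. Their lowest over the settings tried was 0.92 for Actb, 0.94 for Hprt, 0.98 for Gusb, 1.06 for Ywhaz and 1.95 for Ppia.

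The choice of reference shifted the FPKM ratio of any target by the same amount. These are ratios of FPKM, and the qRT-PCR values of the study were not used. Relative to PW1, dividing by Gapdh added 0.25 to a log2 ratio at PW3 and 2.83 at PW5 (7.09-fold), and at PW5 1.27 (2.41-fold) without PW5 replicate 1, 3.70 (13.02-fold) without PW5 replicate 2 and 3.51 (11.4-fold) without PW5 replicate 3. Leaving out libraries was here an alternative chosen after seeing the data. Dividing by Ppia added 3.82 at PW3 (14.1-fold) and 0.35 at PW5, and the PW3 shift was 3.24 without PW3 replicate 1, 5.68 without PW3 replicate 2 and 2.54 without PW3 replicate 3. Dividing by Gusb added 0.80 and 0.73, by Actb -0.23 and 0.13, by Hprt -0.20 and -0.36, and by Ywhaz 0.01 and -0.29. The Ywhaz shift had no fixed sign, from -0.22 to 0.36 at PW3 and from -0.50 to 0.06 at PW5 when each library was left out. The largest shifts were those of Ppia at PW3 and Gapdh at PW5. That of Gapdh rests on the low PW5 values by which it was chosen, so its rank is a description and no test.

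Among the targets, Gfap, the intermediate filament of glia, read 2.599, 1.81 and 2.42 FPKM at PW1, 23.3, 11.3 and 21.4 FPKM at PW3, and 12.7, 16.3 and 19.5 FPKM at PW5. Its mean log2 FPKM was higher than at PW1 by 2.99 at PW3 and 2.82 at PW5, and this became 3.23 and 5.65 when divided by Gapdh and 2.79 and 2.46 when divided by Hprt. The Gfap difference was thus positive with each denominator, and its order between PW3 and PW5 was not the same with each. Nos1, the neuronal nitric oxide synthase, read 3.52, 3.16 and 3.18 FPKM at PW1, 8.09, 25.6 and 14.4 FPKM at PW3, and 7.46, 3.75 and 4.78 FPKM at PW5. Its log2 difference from PW1 at PW5 was 0.64 in FPKM, 0.28 divided by Hprt, 0.77 divided by Actb and 3.47 divided by Gapdh. These differences rest in part on PW5 replicate 1, where Nos1 was highest of the PW5 libraries. Its log2 ratio to Hprt was -2.77 there and -3.89 and -3.62 in PW5 replicates 2 and 3, against a PW1 mean of -3.71. PW5 lay below PW3 for Nos1 in mean log2 FPKM and above it when divided by Gapdh, which rests on PW5 replicate 1: the log2 ratio to Gapdh was 4.78, -1.08 and -0.35 in the PW5 libraries and -0.81, 0.96 and -0.07 in the PW3 libraries. For the synaptic genes Snap25 and Syt1, the PW5 differences were 1.12 and 0.48 in FPKM and 3.94 and 3.30 divided by Gapdh. By qRT-PCR relative to Gapdh, the study found increases of Gfap and Nos1. For Snap25 and Syt1 it found no significant change at PW3 or PW5, only a slight upward trend. Ratios to the FPKM of Gapdh thus do not stand for the qRT-PCR ratios of the study. The Gapdh differences rest in part on PW5 replicate 1, as that of Gfap does. In PW5 replicates 1 to 3, the log2 ratio to Gapdh was 6.33, 1.53 and 1.72 for Snap25 and 6.57, 1.87 and 2.13 for Syt1. For Gfap it was 5.55, 1.03 and 1.68. The SD of the Gfap ratio among PW5 libraries was 2.44 with Gapdh and 0.20 with Hprt.

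**Figure D3:**
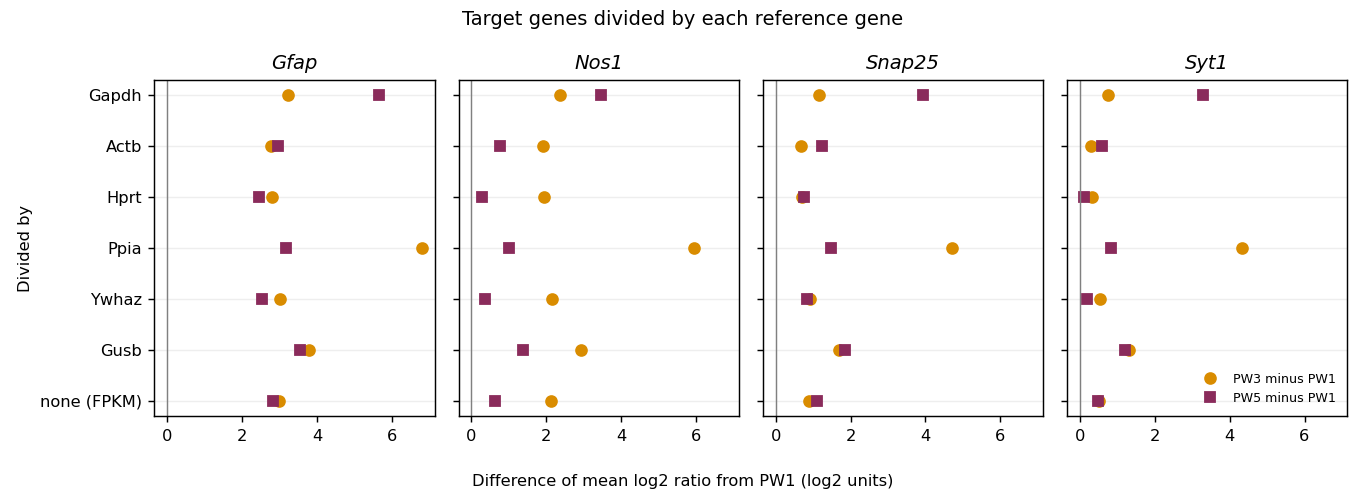
Difference from PW1 (log2 units) of the mean log2 ratio of Gfap, Nos1, Snap25 and Syt1 to each reference gene, for PW3 (circles) and PW5 (squares); the bottom row is FPKM with no denominator. Points for Gapdh at PW5 and Ppia at PW3 lie to the right of the others of their age, by 2.83 and 3.82 from the FPKM with no denominator.

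Across the 9 libraries, the log2(FPKM + 1) values most like those of Gapdh, among genes averaging 10 FPKM or more, were those of Mta2, Arpc4, Dapk3, Puf60 and Fbln2 (Pearson r 0.94 to 0.92), and the most opposed were those of Ankrd40, Aurkaip1, Rabac1, Bcl7b and Mbd2 (r -0.92 to -0.87). These are descriptions over 9 libraries that fall into 3 ages, and they rest in part on PW5 replicate 1: without it, r was 0.72 for Mta2, 0.63 for Arpc4, 0.77 for Dapk3, 0.57 for Puf60 and 0.75 for Fbln2, and -0.75 for Ankrd40, -0.48 for Aurkaip1, -0.87 for Rabac1, -0.53 for Bcl7b and -0.90 for Mbd2. Mta2, a chromatin remodelling subunit, read 3.56 FPKM in that library and 14.3 FPKM in PW5 replicates 2 and 3, a difference that its choice by likeness to Gapdh favours. With the other reference genes, Gapdh had r of 0.40 for Gusb, 0.38 for Actb, -0.22 for Ppia, -0.25 for Ywhaz and -0.48 for Hprt over the same 9 libraries.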

How the data were processed

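Libraries from 9 mice were sequenced with 150-base paired-end reads by the authors, who by their methods trimmed them with Trimmomatic, aligned them to GRCm38 with HISAT2 (also in the submitters' processing notes), used StringTie and deposited FPKM per gene. The tables of single libraries held the same values as the series table, and 10003 of 10011 identifiers were found in GENCODE release M21. Whole reads could not be recovered from the FPKM, so depth is unknown. The members and gene lists were chosen with earlier results of these data known. Each age was compared with PW1 by limma 3.58.1 in R 4.3.3 (two-sided, trend, pseudocount 1, genes averaging 0.5 FPKM or more in the 6 libraries compared, Benjamini-Hochberg over all genes tested), after the step was tested on simulated data. An exact permutation test of 3 against 3 cannot go below p = 0.10 and was not used. Spread, ratios and sequence windows were computed in Python 3.11.15 with pandas 2.3.3 and numpy 2.4.6; figures used matplotlib 3.10.9. Genes were named from a set that is not printed in full. It held the members, all actin isoforms and 14-3-3 genes, and Gfap, Nos1, Snap25 and Syt1. For each pathway list it held the 3 most abundant genes and up to 5 with adjusted p under 0.05 and an absolute log2 fold change of 1 or more. The most abundant gene of each marker list, the 10 most even genes and the 5 genes most and least like Gapdh completed it. Tbp was not analysed here. Other pseudocounts, filters, scalings, fits and leaving out each library were tried.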

Additional observations from a re-analysis of the deposited data

How the results depend on the processing

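The number of reference genes passing at PW3 was 0 in each setting except without PW3 replicate 2, where it was 1 (Ppia); it ran from 0 to 1 when each library was left out. At PW5 the 1 call (Hprt) became 0 in limma without the trend and 2 with quantile normalization (Hprt and Actb, Actb at -0.43), and ran from 0 to 2 when each library was left out. Among all genes, the 682 calls at PW3 became 1346 with all 3 ages in one fit and ran from 105 (without PW1 replicate 2) to 924 (without PW3 replicate 3), with 113, 129, 301 and 450 for PW1 replicates 1 and 3 and PW3 replicates 1 and 2; the cause was not tested. The 2560 calls at PW5 ran from 1887 to 2182 when each library was left out. With the replicate number as a block (replicate block), 0 genes passed at PW3 and 1518 at PW5, and of the reference genes 0 and 1; actin filament genes lower at PW5 went from 6 to 3. The libraries share only a number: same-numbered PW1 and PW3 libraries deviated with correlations of 0.09, -0.01 and -0.03, and PW1 and PW5 libraries with -0.07, 0.03 and 0.06, and not every library correlated best with its own number.

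Directions reversed only for Ywhaz and Actb, neither of which passed in the main test: Ywhaz at PW3 was 0.16 with median-of-ratios scaling, 0.0351 with quantile normalization, 0.20 without PW1 replicate 1, 0.12 without PW1 replicate 3 and 0.21 without PW3 replicate 2 (lowest -0.3581, without PW1 replicate 2), and at PW5 -0.0599 without PW1 replicate 2 (highest 0.4966, without PW1 replicate 1); Actb was -0.11 at PW3 with quantile normalization and 0.0084 at PW5 with median-of-ratios scaling. Hprt kept a positive and Gusb a negative difference in all 15 settings at each age. Median-of-ratios scaling and quantile normalization moved the median of all genes by 0.15 and 0.14 at PW3 and by 0.12 and 0.11 at PW5, and the calls from 245 higher and 437 lower to 373 and 312 and to 323 and 320 at PW3, and from 893 and 1667 to 1197 and 1260 and to 1111 and 1321 at PW5. Of 540 counts of pathway genes under the alternatives, 413 were within 1.5 times the reported count. With each library left out, lysosomal genes higher at PW5 numbered 9 to 12 (11 reported), other reference genes lower at PW5 8 to 9 (8), and glycolytic genes higher at PW5 2 to 4 (4; 9 with median-of-ratios scaling). PW3 list counts were not steady. When some library was left out, every nonzero one fell to 0, except that of other reference genes higher. The reported counts were 3 for lysosomal higher, 4 for other reference lower and 2 for cyclophilins lower. With each library left out, other reference genes higher numbered 1, against 0 to 2 under the other settings. Those settings also raised counts, to at most 5 for glycolytic genes higher (1 reported) and 7 for actin filament genes higher (2 reported). Lysosomal higher and other reference lower each reached 7. Read depth is unknown, so the precision of low values such as those of Gapdh and Gusb cannot be given.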
